A study of Solanum lycopersicum with 8 samples.

Results

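The heat response of A2AS tomato leaf was read from 2 of the 8 libraries of the series, 1 of heated and 1 of control A2AS leaf, compared across all 29345 listed genes. Young leaves came from 8-week-old plants of cv Moneymaker grown at 24 °C in a day of 16 h and at 20 °C in a night of 8 h. Heated A2AS plants were moved to a growth chamber with 120 μmol m−2 s−1 of light, kept at 39 °C for 1 h and left at 24 °C for 1.5 h. The handling of the control A2AS plants is not described in the labels, so the chamber and the time of sampling cannot be told apart from heat. A2AS is known from the study as a transgenic line with suppressed HsfA2, and the labels give neither its promoter nor the number of lines or plants behind a library. Heated and control WT leaf of the same cultivar, 1 library each, serve for comparison, as do the heated and control anther pairs of both genotypes.

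Heat unfolds proteins, and plant cells answer with heat stress transcription factors (Hsfs) that bind the promoters of chaperone genes. HsfA1 factors start the response, while HsfA2 is itself made under heat and is known to sustain and strengthen it. Small heat shock proteins hold unfolding proteins, HSP70 and HSP90 refold them, and HSP101 pulls aggregates apart.

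The libraries were made by massive analysis of cDNA ends, a method that sequences the last 500 bp at the 3′ end of polyadenylated RNA. Levels are in CPM, tags scaled to 1000000 per library. A transcript gives tags only near its 3′ end, so CPM was not divided by length when genes are set side by side. The files list genes by ID alone, and the names used here rest on published tomato nomenclature. The heated A2AS leaf library held 6243965 reads and the control library 13796178, so that 3 reads corresponded to 0.480 and 0.217 CPM. Folds are ratios of CPM, and the intervals in brackets are exact 95% counting intervals, which leave out plant-to-plant variation. With 1 library a side, no difference between heated and control A2AS leaf has a replicate check or a p-value. A gene was counted as different at 2-fold or more on log2((CPM + 1)/(CPM + 1)), among genes whose 2 libraries averaged 10 CPM or more. In whole leaves, fewer cells of a type and less RNA per cell cannot be told apart.

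At least 2-fold differences were found for 304 of 8153 genes between heated and control A2AS leaf, which is 3.73%. Of these, 215 genes (2.64%) were higher after heat and 89 (1.09%) were lower. The median log2 ratio of all genes tested was 0.01, and the ratios from the 5th to the 95th percentile ran from −0.62 to 0.69. Large differences were nearly all upward: 61 genes were at least 4-fold higher and 2 were at least 4-fold lower. The higher genes had a median of 47.0 CPM in heated leaf, against 14.8 CPM in control leaf, and their median fold was 2.69. The lower genes had a median of 14.3 CPM in heated leaf, against 39.1 CPM in control leaf. For 145 of the higher and 50 of the lower genes the whole counting interval lay past 2-fold.

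**Figure D1:**
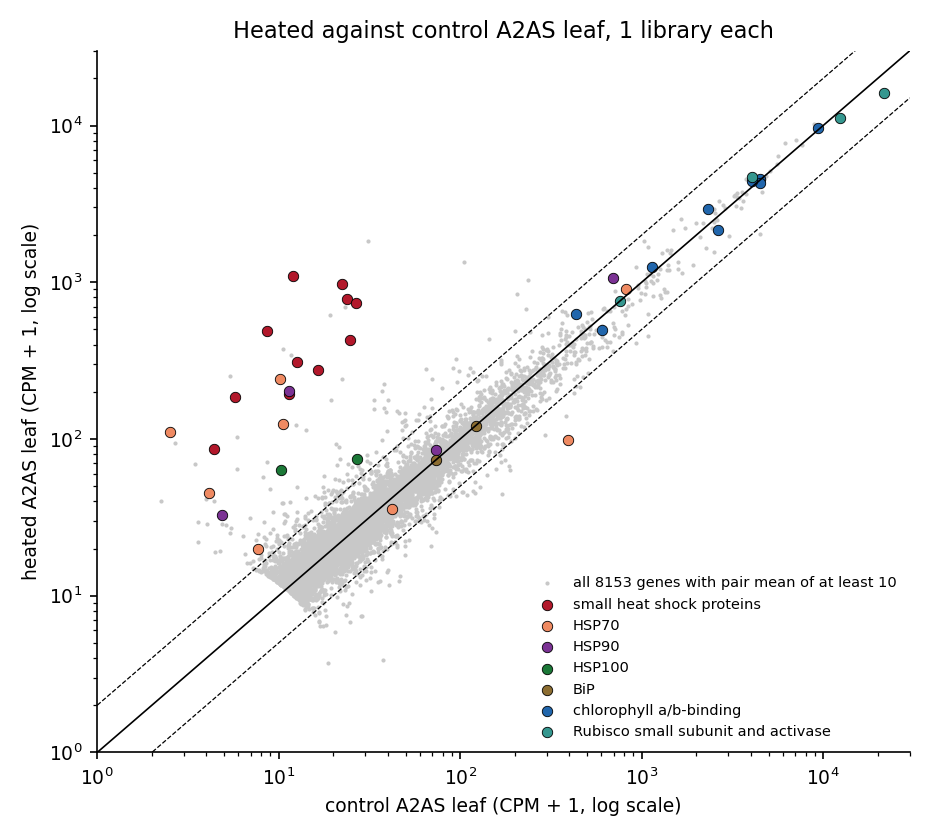
Level of each gene in heated (vertical axis) and control (horizontal axis) A2AS leaf, as CPM + 1 on log scales, for the 8153 genes that averaged 10 CPM or more over the pair. The solid line marks equal levels and the dashed lines 2-fold differences; coloured points are listed families, with the small heat shock proteins far above the upper dashed line and the photosynthesis genes along the solid line.

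HsfA2, the factor targeted in the line, stayed low in both A2AS leaf libraries. It stood at 2.72 CPM (17 reads) in heated and 2.25 CPM (31 reads) in control A2AS leaf, a ratio of 1.21 (0.629 to 2.26) that does not exclude equal levels. WT leaf had 21.7 CPM heated and 10.3 CPM control, so the heated A2AS leaf library fits its label. Control WT anthers had only 1.93 CPM, so a low level in control A2AS leaf does not by itself mark the genotype. Among the other 13 listed Hsf genes none was 2-fold different, and 5 reached a pair mean of 10 CPM. Of all genes that reached it only 3.73% were 2-fold different. HsfB1, a class B factor known in tomato as a coactivator, stood at 29.9 CPM in heated and 17.7 CPM in control A2AS leaf, 1.69-fold (1.39 to 2.06) higher. HsfA8 had the same fold, 1.69 (1.28 to 2.23), from 15.2 CPM heated and 8.99 CPM control. HsfB2a went the other way, at 19.9 CPM heated and 26.3 CPM control, and was 1.32-fold (1.08 to 1.64) lower. HsfA3, which acts downstream in Arabidopsis heat signalling, had 38.1 and 39.6 CPM in heated and control A2AS leaf. HsfA1a, the tomato master regulator, had 18.3 and 17.1 CPM. These Hsf ratios lie within the range that 90% of genes showed, except that of HsfB1 (log2 ratio 0.73) and that of HsfA8 (0.70).

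All 11 small heat shock protein genes that reached the minimum were at least 2-fold higher in heated A2AS leaf, beside 2.64% of all genes tested. Their median log2 ratio was 4.79. Together the 12 listed genes held 0.556% of the reads in heated and 0.0159% in control A2AS leaf, a 35.1-fold difference in the sum. The widest ratio of all 8153 genes tested belonged to Solyc05g014280, with 1101 CPM in heated and 11.0 CPM in control A2AS leaf, 99.9-fold (85.1 to 118). This gene had 1608 CPM in heated and 52.8 CPM in control WT leaf. In anthers it reached only 112 CPM in heated A2AS and 57.4 CPM in heated WT, so its heated level was far higher in leaf.

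Class I genes encode cytosolic small heat shock proteins, the most abundant class in heated plant cells. Solyc06g076560 stood at 489 CPM in heated and 7.67 CPM in control A2AS leaf, 63.7-fold (52.4 to 78.0) higher. Solyc09g015000 had 968 and 21.2 CPM, a 45.6-fold (40.5 to 51.4) difference, and Solyc06g076520 had 778 and 22.8 CPM, a 34.1-fold (30.5 to 38.5) difference. The weakest class I gene, Solyc06g076540, fell below the minimum with a pair mean of 6.30 CPM, yet it had 74 reads in the heated and 11 in the control library (14.3-fold, 7.84 to 31.1). Class II genes, also cytosolic, were represented by Solyc08g062450 (39.0-fold, 30.2 to 50.4) and Solyc08g062340 (17.6-fold, 15.3 to 20.5). The plastid gene Solyc03g082420 and the mitochondrial gene Solyc08g078700 were 28.7-fold (25.8 to 32.1) and 18.6-fold (15.6 to 22.3) higher. Genes of every listed class were higher in heated leaf, and the folds of the 12 genes spanned 14.3 to 99.9.

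**Figure D2:**
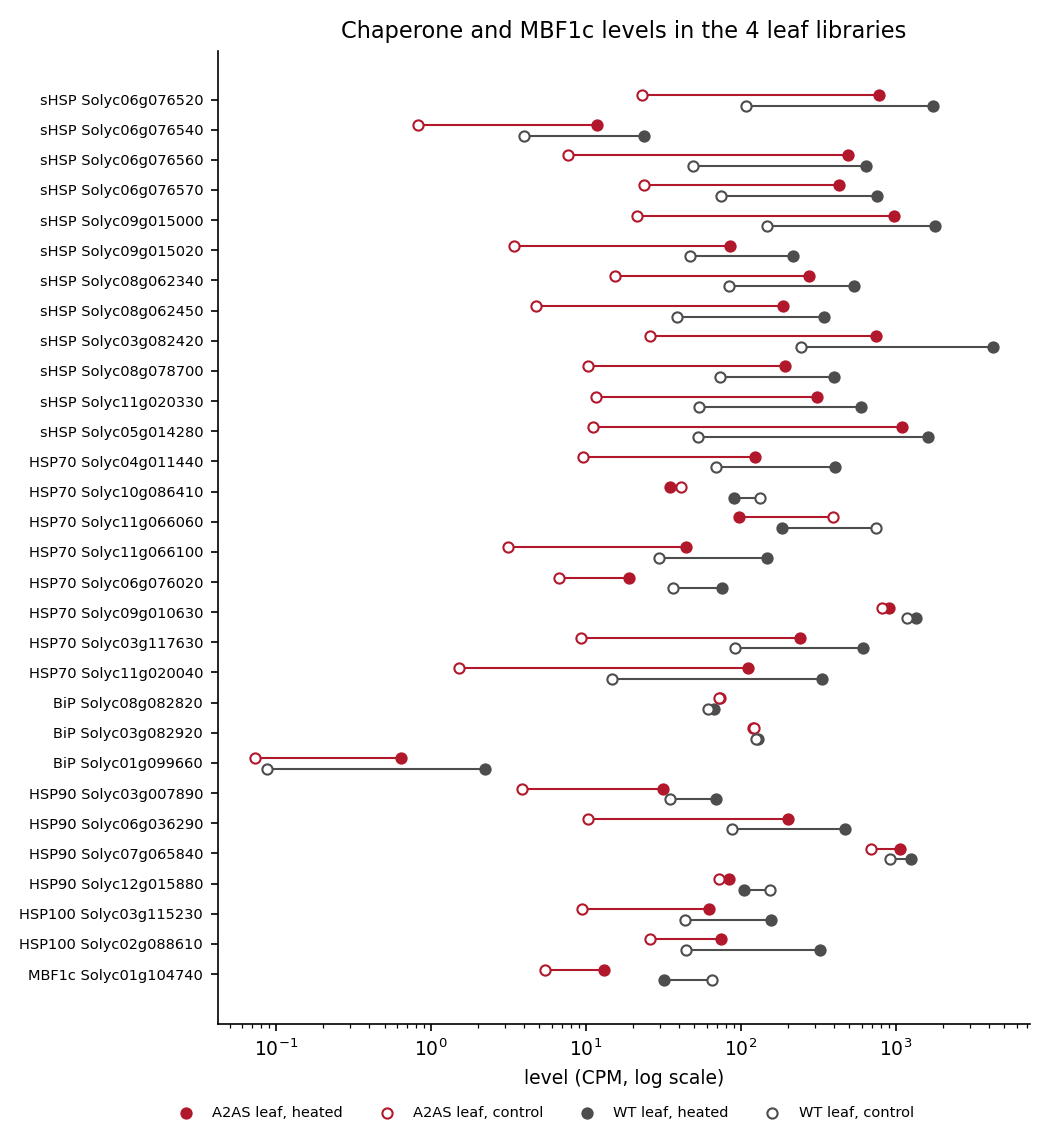
Levels (CPM, log scale) of the listed chaperone genes and MBF1c in A2AS leaf (red, upper line of each row) and WT leaf (grey, lower line), 1 library a point, filled after heat and open in control. For every small heat shock protein both A2AS points lie left of their WT counterparts and the A2AS line is longer.

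HSP70 genes differed among themselves in direction and size. Of 8 genes, 5 were at least 2-fold higher in heated A2AS leaf, 1 was lower and 2 were neither, and the median log2 ratio was 2.42. Of all genes tested, 2.64% were higher and 1.09% were lower. Solyc11g020040 had 110 CPM in heated and 1.52 CPM (21 reads) in control A2AS leaf, a 72.5-fold (47.0 to 118) difference. Solyc03g117630 was 26.1-fold (21.7 to 31.5) higher, with 240 CPM heated and 9.21 CPM control. For Solyc04g011440 the values were 123 and 9.57 CPM (12.8-fold, 10.6 to 15.5), and for Solyc11g066100 they were 44.4 and 3.12 CPM (14.2-fold, 10.3 to 20.1). The most abundant member, Solyc09g010630, differed little, with 908 CPM in heated and 816 CPM in control A2AS leaf (1.11-fold, 1.08 to 1.15). Solyc11g066060, singled out after its values were seen, was 4.02-fold (3.69 to 4.38) lower, at 97.4 CPM heated and 391 CPM control. The summed HSP70 level, most of which came from Solyc09g010630, was 1.23-fold higher. Both BiP genes above the minimum, which encode the HSP70 of the endoplasmic reticulum, were nearly level: 72.9 against 72.3 CPM for Solyc08g082820 and 120 against 122 CPM for Solyc03g082920. Solyc01g099660 was close to absent, with 4 reads in the heated and 1 in the control library.

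Of the HSP90 genes 2 of 4 were at least 2-fold higher in heated A2AS leaf, and so were both genes of HSP100, the disaggregase family. Solyc06g036290, an HSP90 gene, had 201 CPM heated and 10.4 CPM control (19.4-fold, 16.3 to 23.2), and Solyc03g007890 had 31.6 and 3.84 CPM (8.21-fold, 6.04 to 11.3). The other HSP90 genes were not 2-fold different: Solyc07g065840 had 1069 and 693 CPM (1.54-fold, 1.50 to 1.59), and Solyc12g015880 had 84.1 and 72.6 CPM (1.16-fold, 1.04 to 1.29). HSP101 (Solyc03g115230) stood at 62.5 CPM heated and 9.35 CPM control (6.68-fold, 5.46 to 8.22). The ClpB-type gene Solyc02g088610 stood at 74.0 and 26.0 CPM (2.84-fold, 2.47 to 3.27). MBF1c, a heat-induced coactivator, had 13.0 CPM heated and 5.44 CPM control, but its pair mean of 9.20 CPM kept it just outside the minimum, while HsfA8 at 12.1 CPM was just inside. Over all 29 listed chaperone genes, 20 were at least 2-fold higher and 1 was lower among 27 above the minimum. The shares over all genes were 2.64% higher and 1.09% lower. The median log2 ratio of the chaperones was 4.05, beside 0.01 for all genes.

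Chaperone ratios were wider in A2AS than in WT leaf, but they started lower and ended lower. The ratio of heated to control was larger in A2AS leaf for 24 of 29 chaperone genes, among them 12 of 12 small heat shock proteins and 4 of 4 HSP90 genes. In the same libraries 28 of 29 chaperone genes had a lower level in A2AS than in WT leaf after heat, and 28 of 29 in control. Over the 8153 genes of the comparison, 42.4% had a larger ratio in A2AS leaf, 70.7% had a lower level there after heat and 70.1% in control, so lower levels in A2AS leaf were common beyond the chaperones. For the summed small heat shock proteins the heated level was 5562 CPM in A2AS leaf, against 12859 CPM in WT leaf. The control level was 159 CPM in A2AS, against 972 CPM in WT leaf. Control anthers had 194 CPM (A2AS) and 153 CPM (WT), so control WT leaf stood apart and control A2AS leaf was near the anthers. Heated anthers had 12618 CPM (A2AS) and 12682 CPM (WT) of these genes, so after heat A2AS leaf was the lowest. The CPM gained was smaller in A2AS leaf for 12 of 12 of these genes, and for 54 of all 95 listed genes. The 5 chaperone genes whose ratio was not larger in A2AS leaf were the 3 BiP genes, 1 HSP70 gene and the ClpB-type gene. The ClpB-type gene was 2.84-fold higher in A2AS leaf and 7.27-fold (6.63 to 7.98) higher in WT leaf. Against anthers, 11 of 12 small heat shock proteins had a ratio in A2AS leaf above that of WT leaf and below those of both anther pairs. The exception was Solyc05g014280, which was widest in A2AS leaf. Of all 95 listed genes, 25 had a ratio placed in this way. The shares over all genes of a smaller CPM gain and of this placing were not computed. With 1 library a group, none of these differences between pairs has a test of its own.

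**Figure D3:**
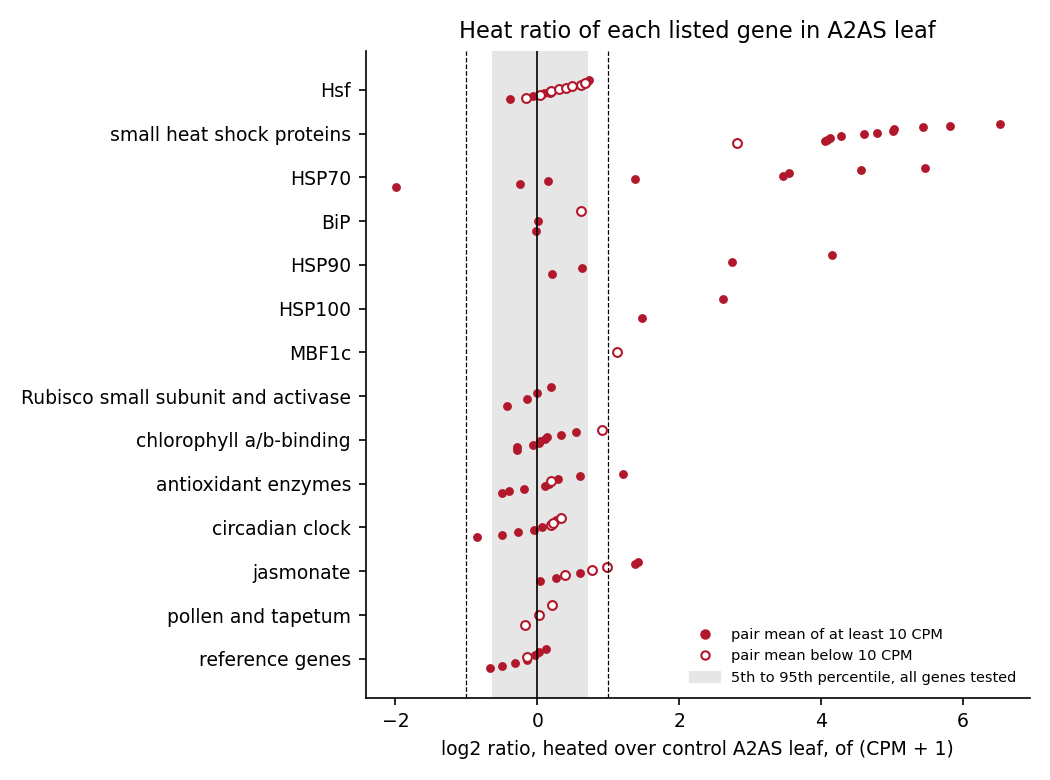
Log2 ratio of heated over control A2AS leaf for each listed gene (points, 1 library a side), grouped by list; open points have a pair mean below 10 CPM. The grey band holds the 5th to 95th percentile of all 8153 genes (−0.62 to 0.69) and dashed lines mark 2-fold; nearly all small heat shock protein, HSP70, HSP90 and HSP100 points outside the band lie above it, while the BiP, Rubisco and pollen and tapetum lists stay within it.

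Photosynthesis genes were close to level in heated A2AS leaf. None of the 9 chlorophyll a/b-binding genes above the minimum, which encode the light-harvesting antenna, was 2-fold different, but only 3.73% of all genes were. Their median log2 ratio was 0.04. The most abundant, Solyc07g047850, had 9667 CPM in heated and 9408 CPM in control A2AS leaf. Solyc08g067320 had 629 and 432 CPM (1.46-fold, 1.40 to 1.52), Solyc02g070970 had 2914 and 2305 CPM (1.26-fold, 1.24 to 1.29), and Solyc02g070950 had 2162 and 2648 CPM (1.22-fold lower). A further gene, Solyc08g067330, was weak, at 7.05 and 3.26 CPM. These genes belong to the same family, their sequences were not compared, and the handling of near-identical genes was not given. Single values may therefore be less certain than their sum, which was 30393 CPM in heated and 29580 CPM in control A2AS leaf. In WT leaf the sum was 12054 CPM heated and 18011 CPM control, and all 9 genes had a negative ratio there (median −0.62), 2 of them past 2-fold. The signs in A2AS leaf are not firm: under median-ratio scaling the ratios of Solyc07g047850 and Solyc02g070940 turned to −0.01 and −0.03.

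The small subunit of Rubisco, the enzyme that fixes carbon, is encoded by RBCS genes, of which RBCS3B and RBCS2A had the highest levels of the listed genes in A2AS leaf. RBCS3B had 16121 CPM in heated and 21574 CPM in control A2AS leaf and was 1.34-fold (1.33 to 1.35) lower, the largest loss in CPM of any gene. RBCS2A had 11211 and 12429 CPM and RBCS1 had 4660 and 4079 CPM, so RBCS1 was higher in heated leaf and the other two were lower. Rubisco activase, which frees Rubisco from bound inhibitors, had 757 and 762 CPM for Solyc10g086580. A second activase gene, Solyc09g011080, added after its values were seen, had 1347 CPM in heated and 105 CPM in control A2AS leaf (12.9-fold, 12.2 to 13.6). In WT leaf that gene had 1541 and 152 CPM (10.1-fold, 9.66 to 10.7), and in the 4 anther libraries it stayed between 10.4 and 23.1 CPM. Heated A2AS leaf therefore held more reads of Solyc09g011080 than of Solyc10g086580, the reverse of control A2AS leaf. The same reversal was seen in WT leaf, where Solyc10g086580 had 296 CPM heated and 439 CPM control.

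**Figure D4:**
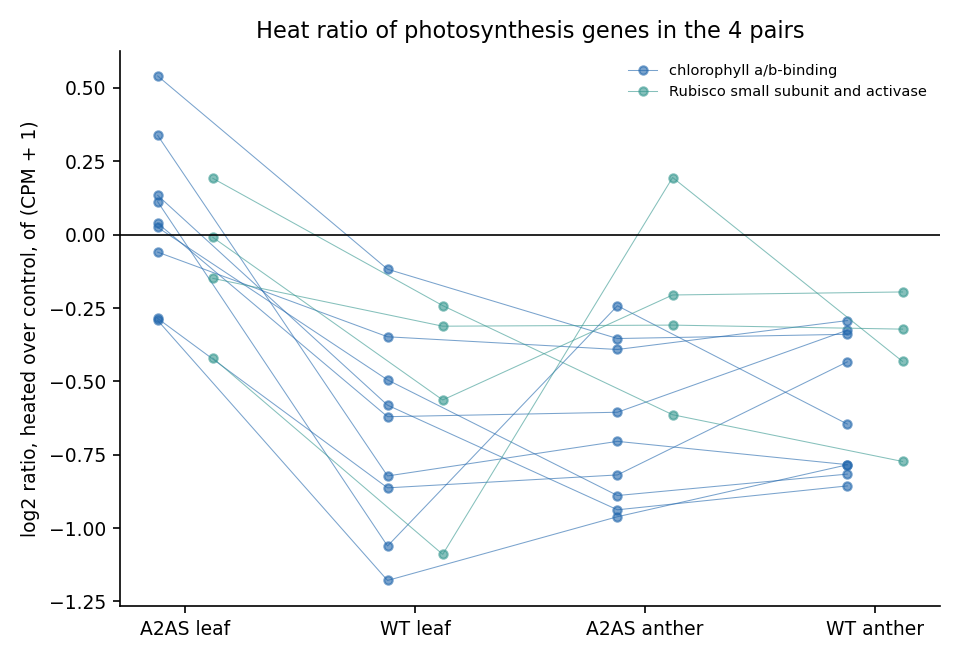
Log2 ratio of heated over control for the 9 chlorophyll a/b-binding genes (blue) and the 4 Rubisco small subunit and activase genes of the list (green) in the 4 pairs; each line is a gene and each point 1 library a side. In A2AS leaf the blue points run from −0.29 to 0.54, while in the other pairs all of them lie below 0.

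Antioxidant and clock genes were mostly within 2-fold in A2AS leaf, and 2 jasmonate repressor genes were above it. Of 8 antioxidant genes above the minimum 1 was called, beside 3.73% of all genes. This was the plastid copper/zinc superoxide dismutase, which turns superoxide into hydrogen peroxide. It had 44.7 CPM in heated and 18.7 CPM in control A2AS leaf (2.39-fold, 2.01 to 2.84), and 21.6 and 14.7 CPM in heated and control WT leaf. The other copper/zinc enzyme (Solyc01g067740) was 1.52-fold (1.46 to 1.59) higher, while the catalases CAT1 and CAT2 were 1.41-fold (1.29 to 1.55) and 1.32-fold (1.27 to 1.37) lower.

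Jasmonate is a stress hormone whose signalling is held back by JAZ repressors, and JAZ genes are themselves switched on by it. JAZ3 had 127 CPM in heated and 46.9 CPM in control A2AS leaf (2.71-fold, 2.44 to 3.01), and JAZ1 had 178 and 67.8 CPM (2.63-fold, 2.41 to 2.87). In WT leaf both were under 2-fold, at 93.9 and 58.9 CPM for JAZ3 and 158 and 90.7 CPM for JAZ1. JAZ2 and the synthesis gene AOS stayed under 1.2 CPM, with 6 and 7 reads in the heated library. The synthesis genes AOC, with 296 and 287 CPM, and OPR3, with 75.2 and 49.4 CPM (1.52-fold, 1.35 to 1.71), were not called. In all, 2 of 5 jasmonate genes above the minimum were 2-fold higher and 0 lower, beside 2.64% and 1.09% of all genes.

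None of the 6 clock genes above the minimum was 2-fold different, but only 3.73% of all genes were. LHY, a morning-expressed repressor, had 13.6 CPM in heated and 25.3 CPM in control A2AS leaf (1.86-fold lower, 1.46 to 2.38), and 17.5 and 37.3 CPM in heated and control WT leaf. Its log2 ratio in A2AS leaf, −0.85, lay below the 5th percentile of all genes (−0.62). The clock gene Solyc04g071990 (GI) had 46.3 and 65.6 CPM in A2AS leaf (1.42-fold lower, 1.24 to 1.62), and its relative Solyc12g056650 had 12.5 and 15.3 CPM. TOC1 (Solyc06g069690) was low, at 2.40 and 1.69 CPM. As the sampling time of control plants is not given, the part of the clock in these ratios was not tested.

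Common reference genes and anther markers were measured as checks. None of the 7 reference genes above the minimum was 2-fold different, but only 3.73% of all genes were. Their log2 ratios ran from −0.66 for TIP41 (14.3 CPM heated, 23.1 CPM control) to 0.12 for UBI3. The ratio of TIP41 lay below the 5th percentile of all genes (−0.62). CAC, a clathrin adaptor gene, had 22.7 and 32.6 CPM (1.43-fold lower, 1.19 to 1.74), ACT 300 and 372 CPM, and SAND 12.8 and 14.3 CPM. The pollen gene LAT52 had 12 reads in heated and 33 reads in control A2AS leaf, at most 2.39 CPM, against 106 to 295 CPM in the anther libraries. The tapetum regulators MS10 and MS32 had at most 2 reads in either A2AS leaf library, which fits the labelled tissue.

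Among genes outside the lists, which the files do not name, Solyc01g095320 had the widest ratio and also the largest gain in CPM of any gene. It stood at 1825 CPM in heated and 29.9 CPM in control A2AS leaf, a 61.0-fold (55.3 to 67.4) difference, and at 1921 and 168 CPM in heated and control WT leaf. Solyc03g113930 had 252 and 4.42 CPM in A2AS leaf (56.9-fold, 44.1 to 74.8). On the lower side, Solyc06g068130 had 2.88 CPM (18 reads) in heated and 36.6 CPM in control A2AS leaf and was 12.7-fold (7.95 to 21.6) lower. Solyc12g098590 had 2.72 and 17.6 CPM (6.47-fold lower, 3.96 to 11.3). These 2 genes were the only ones at least 4-fold lower on the log2(CPM + 1) scale, which the HSP70 gene Solyc11g066060 narrowly missed although its CPM ratio was 4.02-fold. Both were also lower in heated WT leaf, at 43.9 against 138 CPM and 12.5 against 24.8 CPM. The 20 listed chaperones among the 215 higher genes made up 27.7% of the CPM these genes gained, and the 11 small heat shock proteins alone 24.0%.

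Genes different in A2AS leaf were mostly shifted the same way in WT leaf, which shares no library with it. Of the 215 genes higher in heated A2AS leaf, 139 (64.7%) were also at least 2-fold higher in heated WT leaf, where 354 of 8833 genes (4.01%) were and 5.67% differed in either direction, so the shared genes were 39.3% of the WT list. Another 54 were tested in WT leaf without a call, 22 were under its minimum and 0 were 2-fold lower. Of the 89 lower genes, 37 (41.6%) were 2-fold lower in WT leaf, where 147 genes (1.66%) were, and these were 25.2% of the WT list. Under median-ratio scaling 58 lower genes were shared, but the lower list of A2AS leaf was then 112 genes. Across the 7851 genes tested in both leaf pairs the log2 ratios correlated at r = 0.737, a description across genes of 1 cultivar and platform.

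In anthers the shared share was smaller. Of the higher genes of A2AS leaf, 76 (35.3%) were at least 2-fold higher in heated A2AS anthers and 75 (34.9%) in heated WT anthers, where 2.22% and 2.55% of all genes tested were higher and 4.72% and 5.22% differed in either direction. Of the lower genes, 11 and 10 were 2-fold lower there, against 2.5% and 2.67% of all genes tested, and each anther pair had 1 gene of either list past 2-fold the opposite way. More genes were under the minimum in anthers: 56 (A2AS) and 58 (WT) of the higher genes, against 22 in WT leaf. For the lower genes these numbers were 33 and 37, against 12 in WT leaf. Such genes could not be called there, so the shares are not shares of genes that anthers allowed to be called. In total 61 genes were higher in all 4 pairs and 4 were lower in all 4. A further 66 of the 215 higher genes were 2-fold higher in no other pair by this rule, and 45 of the 89 lower genes were 2-fold lower in no other pair. Both counts include genes under the minimum in another pair, which could not be called there. Matching counts for genes of the other pairs are not given, so the 66 and 45 cannot be called unusual. All of these are counts over single libraries and not tests of difference.

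**Figure D5:**
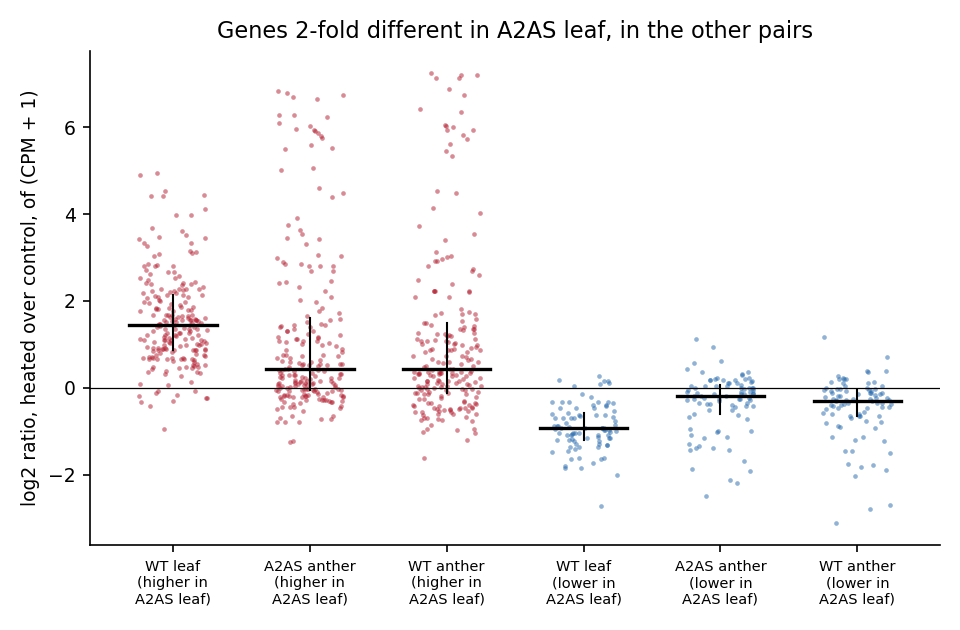
Log2 ratio of heated over control, in the 3 other pairs, of the 215 genes higher (red) and the 89 lower (blue) after heat in A2AS leaf. Horizontal bars are medians and vertical bars quartiles over genes; the medians are 1.44 in WT leaf, 0.43 in A2AS anther and 0.43 in WT anther for the higher genes, and −0.94, −0.20 and −0.30 for the lower genes.

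The 6 libraries outside A2AS leaf gave a test of heat in which the levels of the A2AS leaf pair were not fitted, though they counted in the mean of at least 2 CPM that admitted genes. limma on log2(CPM + 1), with the pair as a block, called 53 of 15220 genes higher (0.348%) and 4 lower (0.0263%) after heat at an adjusted p below 0.05, and 42 and 9 under median-ratio scaling. Its residual is how the ratio varies over tissues and genotypes, not over plants. Of the 215 genes higher in A2AS leaf, 36 (16.7%) rose by this test and 0 fell, and 194 (90.2%) had a positive estimate, against 60.8% of all genes tested. With the minimum taken over the 6 fitted libraries, an alternative chosen after seeing the data, 36 of the higher and 2 of the lower genes were called in the same direction as in A2AS leaf. Of the 89 lower genes, 2 fell and 0 rose, and 83 had a negative estimate. HSP90 Solyc06g036290 rose by 2.80 ± 0.15 log2 (SE; limma adjusted p = 0.0185), with a log2 ratio of 4.15 in A2AS leaf. HSP70 Solyc04g011440 rose by 3.03 ± 0.19 (limma adjusted p = 0.0188), with 3.55 in A2AS leaf. Among small heat shock proteins 3 of 12 passed this test and all 12 had positive estimates, with limma adjusted p values up to 0.122. The HSP70 gene Solyc11g066060 fell by 1.81 ± 0.16 (limma adjusted p = 0.0384), and it was 4.02-fold lower in heated A2AS leaf. The number of calls moved with the pairs used: it was 292 without the WT leaf pair, 1 without the WT anther pair and 2 without the A2AS anther pair. The library labelled heated A2AS anther goes against its label in HsfA2, with 39.3 CPM, against 22.3 CPM in heated WT anthers.

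The ratio in A2AS leaf was last set against the ratios of the other 3 pairs. A2AS leaf enters as 1 pair, and the spread comes from how WT leaf and both anther pairs differ among themselves, so a count of 0 does not show that the responses were alike. limma called 0 of 15220 genes (0%), with 688 at an unadjusted p below 0.05, and the smallest adjusted p was 0.929. The chlorophyll a/b-binding gene Solyc02g070970 had the smallest unadjusted p of the listed genes, with a ratio larger in A2AS leaf than in the other pairs by 1.11 ± 0.18 log2 (limma adjusted p = 0.929). All 9 tested members of that list had a larger ratio in A2AS leaf than in each of the other 3 pairs. As members of the same family, measured in the same libraries, they are not 9 separate observations. Of all 95 listed genes 34 had such a ratio, and the share over all genes was not computed. The HSP90 gene Solyc06g036290 differed by 1.36 ± 0.30 and the plastid superoxide dismutase Solyc11g066390 by 1.09 ± 0.34 (limma adjusted p = 0.929 for both). In the other direction, the clock gene Solyc12g056650 differed by −0.90 ± 0.31 and HsfA3 by −0.97 ± 0.38 (limma adjusted p = 0.929 for both). HsfB2a, at −0.53 ± 0.21, and the reference gene CAC, at −0.57 ± 0.23, had the same adjusted p, and so did the BiP gene Solyc01g099660, at −1.87 ± 0.67 from 4 and 1 reads. HsfA2 differed by −2.56 ± 1.23 (limma adjusted p = 0.929), with a log2 ratio of 0.20 in A2AS leaf, against 1.01 in WT leaf, 4.27 in A2AS anthers and 2.99 in WT anthers. MBF1c had 1.12 in A2AS leaf, −1.01 in WT leaf, 5.52 in A2AS anthers and 3.77 in WT anthers, and it did not pass (limma adjusted p = 0.965).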

How the data were processed

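The study sequenced cDNA ends of leaf and anther RNA, 1 library a group, and quality control used FastQC, per the submitters' processing notes. The aligner, annotation, strand of counting and handling of near-identical genes were not given in the sources used here. Per gene, the authors deposited tags scaled to 1000000 reads of each library, which the names of the deposited tables call TPM and which are treated here as CPM because most values are multiples of 1 step shared by all genes of a library, with no length term. The listed genes hold between 69.2% and 73.4% of each library's total. Dividing by the step of 1 read gave whole numbers, within 0.001, for 77.6% to 83.9% of values, under the 95% set for a count model, so limma on log2(CPM + 1) was used. Library sizes and read counts were read from that step.

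Ratios used a pseudocount of 1 and a pair mean of at least 10 CPM. Intervals are exact Clopper-Pearson intervals of read shares and cover counting error only, as do floors of 3 reads. limma 3.58.1 in R 4.3.3 fitted genes that averaged 2 CPM or more over 8 libraries, with the pair as a block, 2 residual degrees of freedom and Benjamini-Hochberg adjustment over all genes. Python 3.11.15, pandas 2.3.3, scipy 1.17.1 and matplotlib 3.10.9 did the rest, and the scripts were tested on simulated data. The 95 genes of 14 lists were chosen from published tomato gene names with earlier results of these data known, and all were found. Text names were picked by rule: HsfA2, Hsf genes above the minimum, the 4 widest ratios of each list, 2 unlisted genes a direction, and up to 5 listed genes a direction from the test of difference. Other names, such as Solyc11g066060, Solyc09g011080, AOC, OPR3, UBI3 and further family members, were added after their values were seen. The reference gene table held no tomato locus IDs of the files' kind and was not used.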

Additional observations from a re-analysis of the deposited data

Results flagged for a closer look

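Among the 95 listed genes, 12 had a heated-to-control ratio on opposite sides of 1 in A2AS and WT leaf, with counting intervals excluding 1 in both. The share over all genes was not computed, so the count cannot be called unusual. In genes with many reads such intervals exclude 1 at small folds, as for Solyc02g070940 in A2AS leaf (1.017-fold, 1.003 to 1.032). The median log2 ratio of all genes tested was 0.01 in A2AS leaf and 0.10 in WT leaf. The differences are given as the log2 ratio in A2AS leaf minus that in WT leaf. With 1 library a group each difference between the leaf pairs was not tested, and the limma test of A2AS leaf against the other 3 pairs called none of the 12. MBF1c (Solyc01g104740) had the widest difference, 2.13, being 2.39-fold higher in heated A2AS leaf and 2.04-fold lower in heated WT leaf. Of the chlorophyll a/b-binding genes 6 were of this kind: Solyc03g005780 (1.17), Solyc02g070970 (1.16), Solyc02g070980 (0.72), Solyc07g047850 (0.66), Solyc08g067320 (0.66) and Solyc02g070940 (0.52). Under median-ratio scaling Solyc07g047850 and Solyc02g070940 were slightly lower in heated A2AS leaf, so they no longer lay on opposite sides. The HSP90 gene Solyc12g015880 differed by 0.77, the jasmonate synthesis gene LOXD (Solyc03g122340) by 0.63, APX1 (Solyc06g005160) by 0.44 and RBCS1 (Solyc02g063150) by 0.43. The reference gene CAC (Solyc08g006960) went the other way, by −0.77, with 22.7 CPM in heated and 32.6 CPM in control A2AS leaf.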

How the results depend on the processing

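In A2AS leaf the count of genes at least 2-fold different was 304 (215 higher, 89 lower). With the minimum lowered to 5 CPM the lower genes numbered 139, and with no minimum the counts were 638 in all, 404 higher and 234 lower. At 4-fold they were 63, 61 and 2, and with the counting interval wholly past 2-fold they were 195 in all and 50 lower. Median-ratio scaling gave 303, of which 191 were higher and 112 lower. The 24 listed genes past 2-fold numbered 24 under both scalings and both pseudocounts. Lower genes shared with WT leaf numbered 58 under median-ratio scaling and 24 with a pseudocount of 5, against 37. The limma calls in the other 3 pairs, 53 higher and 4 lower, had 9 lower under median-ratio scaling, 8 with a pseudocount of 0.5 and 12 with a minimum of 10 CPM. With no minimum 0 were called in all, 0 higher and 0 lower, beside 3735 at an unadjusted p below 0.05. Leaving out the WT leaf pair gave 292 calls (169 higher, 123 lower), leaving out the WT anther pair 1 (1 higher, 0 lower) and leaving out the A2AS anther pair 2 (2 higher, 0 lower). With the minimum taken over the 6 libraries outside A2AS leaf, chosen after seeing the data, 52 were higher and 4 lower. The cause of these shifts was not tested. The limma test of A2AS leaf against the other 3 pairs called 0 genes under each of its 8 alternatives, with 281 to 2204 at an unadjusted p below 0.05. No paired analysis by replicate was possible because each group has 1 library. The heated A2AS leaf library was the shallowest, so a level of 3 reads there was 0.480 CPM, against 0.217 CPM in control A2AS leaf, and differences of genes near that level were not detectable.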
